A study of Mus musculus with 6 samples.

Results

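The 10 genes described here form a set named inhibitory checkpoint receptors: Pdcd1, Ctla4, Lag3, Havcr2, Tigit, Btla, Cd160, Cd244, Cd200 and Cd5. Cd200 encodes the ligand of such a receptor and is counted with the receptors below. The 10 genes were taken by gene symbol from 23091 symbols measured in each of 6 libraries. Each of the 10 had 1 valid entry in every library. RNA was sequenced from CD4 T cells of 7-week-old wild-type C57/Bl6j mice, isolated as naive cells from spleen and nodes and polarised to Th9, the helper T cell subset that makes interleukin 9. All cultures had plate-bound CD3 and CD28 stimulation, 20 ng/ml IL-4, 2 ng/ml TGFβ and an antibody that blocks interferon γ. The Th9+IL-1β groups also had 10 ng/ml of interleukin 1β (IL-1β), an inflammatory cytokine, and the Th9 groups had none. Each arm gave 1 library at 1 h of culture, 1 at day 3, and 1 in vivo. For the in vivo stage, cells carrying the CD45.2 allele went into CD45.1 hosts after 3 days of culture and were recovered by sorting after 1 week. The sources used here do not give the organ they came from or whether mice were pooled.

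A T cell that receives signals through its antigen receptor and through CD28 also puts receptors on its surface that dampen those signals. PD-1 (Pdcd1) and BTLA (Btla) carry tyrosine motifs in their tails that recruit the phosphatases SHP-1 and SHP-2. CTLA-4 (Ctla4) takes the ligands CD80 and CD86 away from CD28, LAG-3 (Lag3) binds MHC class II, TIM-3 (Havcr2) binds galectin 9 among other partners, and TIGIT (Tigit) competes with CD226 for CD155. CD5 (Cd5) tunes antigen receptor signals in nearly all T cells, CD200 (Cd200) is the ligand of the inhibitory receptor CD200R, and CD160 (Cd160) and 2B4 (Cd244) are best known from NK and CD8 T cells. Activated helper T cells carry several of these receptors for a time, and long antigen exposure is known to keep PD-1, LAG-3 and TIM-3 high.

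Values are fragments per kilobase of transcript, scaled to the fragments of the library (FPKM), as deposited, each with a deposited lower and upper bound given here in brackets. There is 1 library per group, so no difference between 2 libraries has a replicate check or a p-value. Log2 ratios are of FPKM + 1, which understates the change of low genes. Genes entered a comparison if the larger of their 2 values was 5 FPKM or more. They were counted as different if FPKM + 1 also differed by 2-fold or more and the 2 deposited intervals did not overlap.

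The 1 h libraries were described as made from RNA without its ribosomal part. The other 4 were described as made from poly(A)-purified RNA, so the 1 h stage and the RNA selection cannot be told apart. The ribosomal RNA precursor Rn45s still made up 24.7% and 41.3% of the summed FPKM at 1 h with and without IL-1β. In the other 4 libraries its share was 0.035% to 0.066%. Low FPKM values multiplied by transcript length fell on regular steps, which gave an estimate of 1042000 and 449000 fragments at 1 h with and without IL-1β. The other 4 libraries came to between 1354000 and 1705000 fragments. Only 765 and 631 genes reached 5 FPKM in the Th9+IL-1β and Th9 libraries at 1 h, against 7313 to 8154 in the other 4. All 14 T cell identity genes reached 5 FPKM in the 4 poly(A) libraries, and 14 and 11 did at 1 h with and without IL-1β. Il9, which defines the Th9 state, was at 274 FPKM (149 to 227) in Th9+IL-1β cells and 39.8 FPKM (16.5 to 48.4) in Th9 cells at day 3. In vivo it was at 49.6 FPKM (17.7 to 48.0) with IL-1β and 59.5 FPKM (23.3 to 57.0) without. All of these but the Th9 value at day 3 lay above their own upper bound. Il9 was listed at 0 in both 1 h libraries.

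The 2 receptor genes that differed between the in vivo libraries were Pdcd1 and Havcr2, and their promoters are shown beside that of Ctla4, a receptor of the CD28 family that was higher than Pdcd1 in all 6 libraries. The sequences are the 250 bases before the annotated start, from RefSeq on GRCm38.p6, each written 5′ to 3′ along the gene. Capitals mark matches to motifs of factor families known from activated T cells.
Pdcd1, chr1:94052554-94052803, minus strand: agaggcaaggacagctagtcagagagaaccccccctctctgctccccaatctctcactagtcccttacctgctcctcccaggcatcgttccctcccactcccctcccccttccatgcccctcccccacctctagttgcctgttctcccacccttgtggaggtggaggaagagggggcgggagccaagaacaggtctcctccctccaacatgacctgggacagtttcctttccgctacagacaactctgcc
Havcr2, chr11:46454681-46454930, plus strand: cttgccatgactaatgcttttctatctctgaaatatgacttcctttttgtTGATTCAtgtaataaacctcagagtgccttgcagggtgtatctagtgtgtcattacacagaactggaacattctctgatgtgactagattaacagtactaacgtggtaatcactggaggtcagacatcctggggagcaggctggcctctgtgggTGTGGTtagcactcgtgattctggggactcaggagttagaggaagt
Ctla4, chr1:60908775-60909024, plus strand: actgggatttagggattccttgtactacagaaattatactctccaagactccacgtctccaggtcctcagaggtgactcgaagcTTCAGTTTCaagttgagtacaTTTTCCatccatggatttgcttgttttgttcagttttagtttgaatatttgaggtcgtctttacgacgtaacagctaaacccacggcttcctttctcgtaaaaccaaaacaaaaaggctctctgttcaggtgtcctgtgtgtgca

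The Havcr2 window held an AP-1 motif (TGANTCA) 200 bases before the start and a RUNX motif (TGTGGT) 46 bases before it. In the Ctla4 window the NFAT core (GGAAAA) and a shortened form of the interferon motif ISRE (GAAANNGAA) lay on the opposite strand, 145 and 166 bases before the start. The Pdcd1 window, at 60.4% G and C against 44.8% for Havcr2 and 42.4% for Ctla4, held none of the 7 motifs searched on both strands. The other 3 were the STAT motif GAS (TTCNNNGAA), the Nr4a motif NBRE (AAAGGTCA) and a shortened κB motif (GGGANTTTC), and matches of different motifs may overlap. Of 32851 RefSeq promoter windows, 6.75% held the AP-1 motif, 14.0% the RUNX motif, 20.4% the NFAT core, 7.02% GAS, 7.13% ISRE, 1.34% NBRE and 0.941% the κB motif. Among the 9 receptor genes matched to a promoter, 4 held the RUNX motif, 2 the AP-1 motif, 2 the NFAT core, 2 ISRE and 1 GAS. A match is a stretch of letters, not a shown binding site, and these windows were not measured in the libraries.

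The receptors spanned a wide range of levels once the cells had been cultured for 3 days. Cd5, Ctla4 and Lag3 were the 3 highest in all 4 poly(A) libraries and together made up 66.4% to 75.7% of the summed FPKM of the 10 genes. Tigit, Cd200 and Btla stood between 16.1 and 40.8 FPKM. Pdcd1 was below these 3 except in Th9+IL-1β cells in vivo, where it was beside Btla, Havcr2 was lower than Pdcd1, and Cd160 and Cd244 stayed below 4 FPKM in every library. The sum over the 10 genes was 353 FPKM in Th9+IL-1β cells and 334 FPKM in Th9 cells at day 3, and 279 and 312 FPKM in vivo. The T cell identity genes summed to 3870 and 3655 FPKM at day 3 and to 3293 and 3577 FPKM in vivo with and without IL-1β.

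**Figure D1:**
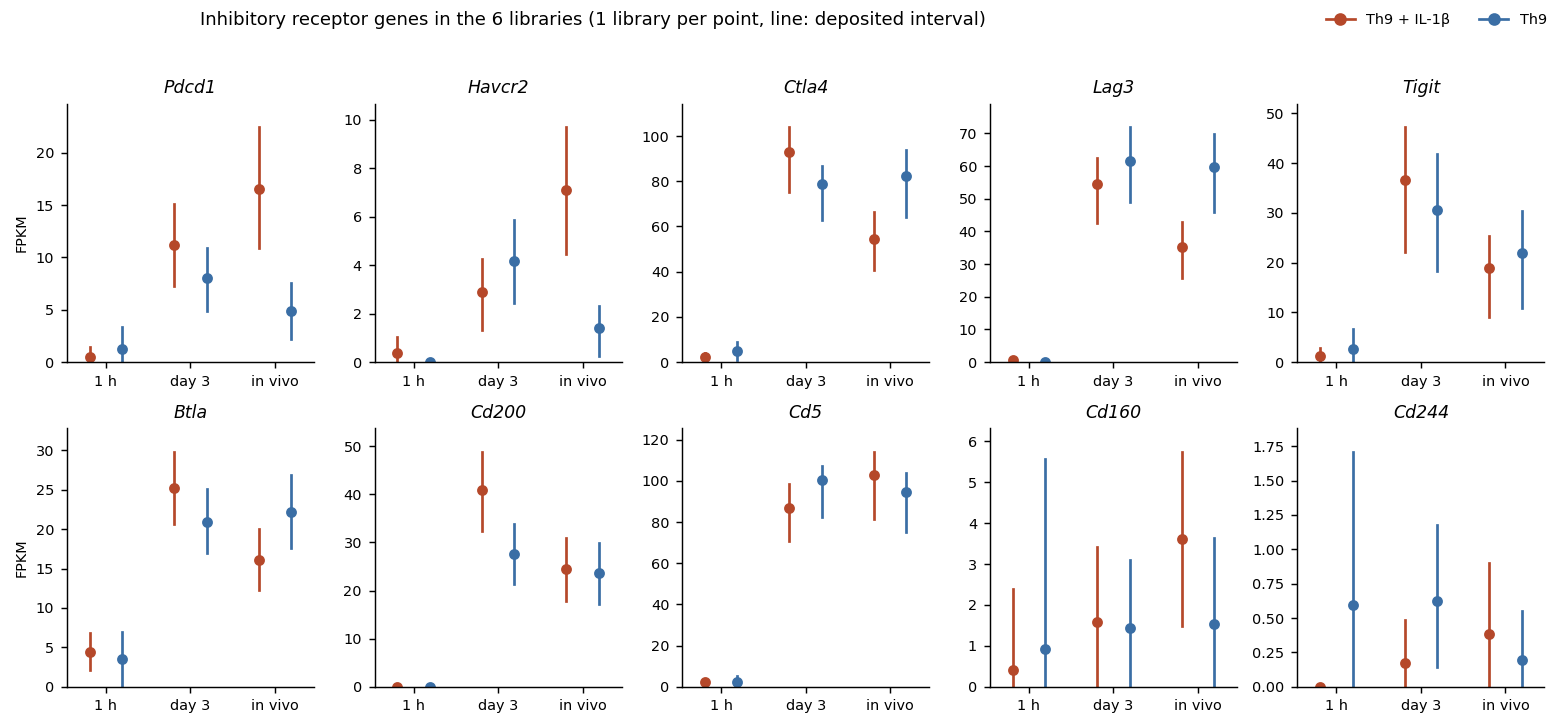
FPKM of each of the 10 receptor genes in the 6 libraries, with stages from left to right and, within a stage, the Th9+IL-1β library left of the Th9 library; bars are the deposited intervals. Pdcd1 and Havcr2 are the genes whose in vivo pair stands apart with the Th9+IL-1β library on top, at 16.5 against 4.91 FPKM and 7.11 against 1.39 FPKM.

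Not every step in the order was larger than the intervals. In the Th9+IL-1β library at day 3, Ctla4 and Cd5 overlapped each other and both were above Lag3. In that library the gaps between Btla and Pdcd1 and between Pdcd1 and Havcr2 were also clear of the intervals, while Lag3, Cd200, Tigit and Btla formed a chain of overlapping neighbours. In the Th9 library at day 3, Cd5, Ctla4 and Lag3 formed an upper group of overlapping neighbours, Tigit, Cd200 and Btla a middle group, and Pdcd1, Havcr2, Cd160 and Cd244 a lower one. The same division into 3 sets held in the Th9 library in vivo. In the Th9+IL-1β library in vivo Cd5 alone stood above Ctla4, and Pdcd1, at 16.5 FPKM, was level with Btla at 16.1 FPKM.

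At 1 h no receptor gene reached 5 FPKM in either library, so 0 were counted as different between the Th9+IL-1β and Th9 libraries, against 7.93% of the 933 genes compared. Pdcd1 was listed at 0.516 FPKM (0 to 1.43) in Th9+IL-1β cells and 1.20 FPKM (0 to 3.33) in Th9 cells. Ctla4 was listed at 2.06 FPKM (0.476 to 3.81) in Th9+IL-1β cells and 4.81 FPKM (1.11 to 8.87) in Th9 cells. Tigit was listed at 1.13 and 2.63 FPKM, and Cd160 at 0.398 and 0.928 FPKM, with and without IL-1β. These numbers rest on very few fragments. Pdcd1, Tigit and Cd160 each came to about 1 estimated fragment in both libraries and Ctla4 to about 4, and their FPKM ratios lay between 0.428 and 0.429. That is the commonest ratio of the 3603 low genes, 0.428, and close to 0.431, the ratio that equal fragment numbers would give at the 2 estimated depths.

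Btla, which binds the TNF receptor family member HVEM, was the best covered of the 10 genes at 1 h, at 15.1 estimated fragments with IL-1β and 5.07 without. Its levels were 4.47 FPKM (2.08 to 6.85) in Th9+IL-1β cells and 3.47 FPKM (0 to 6.94) in Th9 cells, and the intervals overlapped. Cd5 came to 7.45 and 2.99 estimated fragments and to 2.39 and 2.23 FPKM with and without IL-1β. Cd200 was listed at 0 in both libraries, Havcr2 and Lag3 were listed at 0 in the Th9 library alone, and Cd244 in the Th9+IL-1β library alone. Each value opposite such a 0 came to about 1 fragment. Differences between the arms at 1 h were therefore not detectable at this depth.

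**Figure D2:**
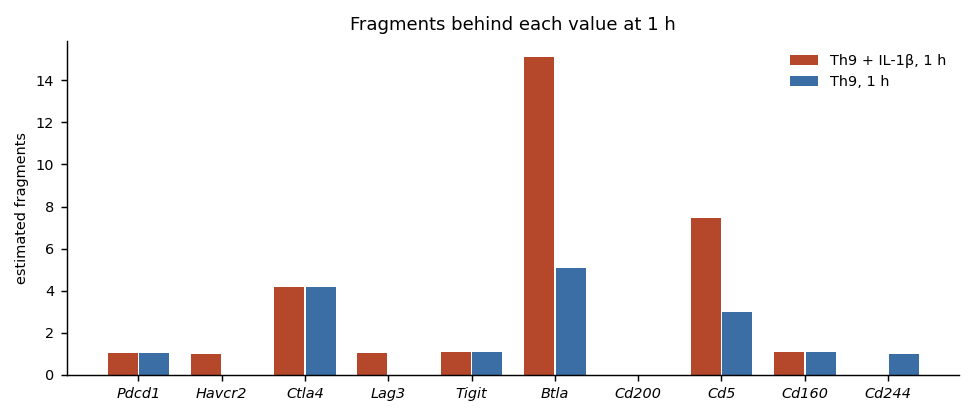
Estimated number of fragments behind each receptor gene at 1 h in the Th9+IL-1β library (left bar) and the Th9 library (right bar). Btla has the most, 15.1 with IL-1β and 5.07 without, and Pdcd1, Tigit and Cd160 have about 1 in each library.

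At day 3, 7 receptor genes reached 5 FPKM in at least 1 library and 0 of them were counted as different with IL-1β, against 3.44% of the 7962 genes compared. Among receptors of the CD28 family, Pdcd1 stood at 11.2 FPKM (7.23 to 15.1) in Th9+IL-1β cells and 7.99 FPKM (4.86 to 10.9) in Th9 cells. Ctla4 stood at 92.8 FPKM (75.0 to 103.9) in Th9+IL-1β cells and 78.6 FPKM (62.9 to 86.9) in Th9 cells. Btla stood at 25.2 FPKM (20.6 to 29.8) in Th9+IL-1β cells and 21.0 FPKM (16.9 to 25.1) in Th9 cells. In all 3 the intervals overlapped and the log2 ratios were 0.44, 0.24 and 0.26.

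Of the other receptors at day 3, Cd200 had the largest ratio among those at 5 FPKM, with 40.8 FPKM (32.3 to 48.8) in Th9+IL-1β cells and 27.5 FPKM (21.4 to 33.9) in Th9 cells, a log2 ratio of 0.55. Its intervals still overlapped, and they allowed log2 ratios between -0.07 and 1.15. Lag3 stood at 54.5 FPKM (42.7 to 62.4) in Th9+IL-1β cells and 61.6 FPKM (49.0 to 71.9) in Th9 cells. Cd5 stood at 87.0 FPKM (70.9 to 98.5) in Th9+IL-1β cells and 100.3 FPKM (82.4 to 107.2) in Th9 cells. Tigit, at 36.6 FPKM (22.0 to 47.2) and 30.5 FPKM (18.3 to 41.8) with and without IL-1β, had wide intervals.

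Havcr2 was below the floor in both day 3 libraries, at 2.88 FPKM (1.34 to 4.23) in Th9+IL-1β cells and 4.16 FPKM (2.43 to 5.87) in Th9 cells. Cd160 stood at 1.57 and 1.43 FPKM and Cd244 at 0.170 and 0.621 FPKM with and without IL-1β. The 2 Cd244 values came to about 1 and 4 fragments. The median log2 ratio of the 7 receptors at 5 FPKM was 0.25, against -0.05 for all genes compared.

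In vivo, the libraries of the 2 arms differed in 2 of the 10 receptors. Pdcd1 and Havcr2 were both higher in the cells cultured with IL-1β, while Ctla4, Lag3 and Btla had lower values there without meeting the rule. Of the 8 receptors at 5 FPKM, 2 were counted as higher, against 6.23% of the 8639 genes compared. Both passed the floor only through the library where they were higher, so their count describes these 2 libraries and is no support for a difference. None was counted as lower, against 3.48%. The median log2 ratio of the 8 was -0.07, against 0.03 for all genes compared.

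Pdcd1 stood at 16.5 FPKM (10.9 to 22.4) in Th9+IL-1β cells in vivo and at 4.91 FPKM (2.16 to 7.56) in Th9 cells in vivo, a 3.36-fold ratio of FPKM. On the log2 scale of FPKM + 1 the ratio was 1.57, and the intervals allowed 0.47 to 2.89. The estimated fragment numbers were 43.9 in the Th9+IL-1β library and 12.8 in the Th9 library. Havcr2 stood at 7.11 FPKM (4.47 to 9.69) in Th9+IL-1β cells in vivo and at 1.39 FPKM (0.255 to 2.30) in Th9 cells in vivo, a 5.10-fold ratio of FPKM. Its log2 ratio was 1.76, with 0.73 to 3.09 allowed, from 26.7 and 5.14 estimated fragments with and without IL-1β. Among all genes compared, these ratios stood at the 96.1 percentile for Pdcd1 and the 96.9 percentile for Havcr2. With a pseudocount of 5 in place of 1, Havcr2 had a log2 ratio of 0.92 and was no longer counted.

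Lag3 was the only receptor whose in vivo intervals lay apart in the other direction. It stood at 35.1 FPKM (25.7 to 42.9) in Th9+IL-1β cells and 59.7 FPKM (45.8 to 69.7) in Th9 cells, a log2 ratio of -0.75 that is under 2-fold. Ctla4 stood at 54.3 FPKM (40.6 to 66.6) in Th9+IL-1β cells and 82.2 FPKM (64.0 to 93.9) in Th9 cells, with intervals that overlapped slightly. Btla stood at 16.1 FPKM (12.3 to 20.0) in Th9+IL-1β cells and 22.2 FPKM (17.6 to 26.9) in Th9 cells, also with overlapping intervals. The log2 ratios of Ctla4 and Btla were -0.59 and -0.44.

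The remaining receptors had close values in the in vivo pair or were too low to compare. Cd5 stood at 102.7 FPKM (81.4 to 114.1) in Th9+IL-1β cells and 94.6 FPKM (75.2 to 104.1) in Th9 cells. Cd200 stood at 24.5 FPKM (17.9 to 30.8) in Th9+IL-1β cells and 23.7 FPKM (17.2 to 29.9) in Th9 cells. Tigit stood at 19.0 FPKM (9.13 to 25.3) in Th9+IL-1β cells and 21.9 FPKM (10.8 to 30.3) in Th9 cells. Cd160 was under the floor at 3.61 FPKM (1.48 to 5.74) in Th9+IL-1β cells and 1.52 FPKM (0 to 3.65) in Th9 cells, from 12.9 and 5.34 estimated fragments. Cd244 came to 2 fragments or fewer in each library, at 0.386 and 0.197 FPKM with and without IL-1β.

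**Figure D3:**
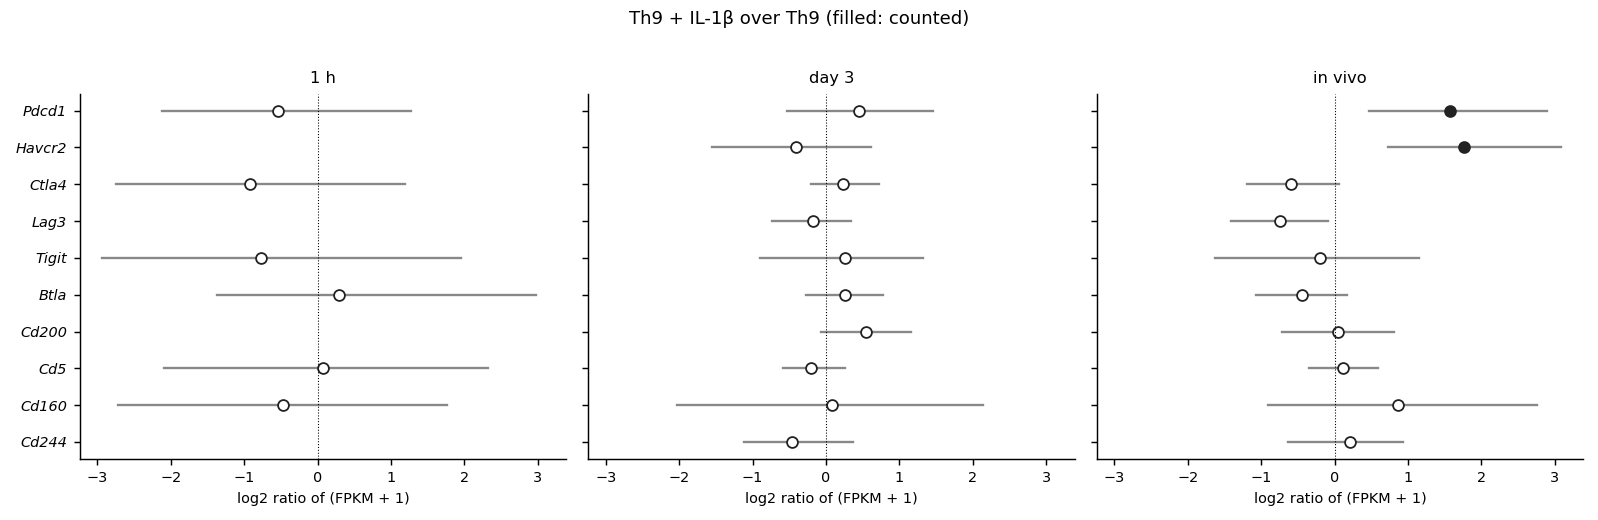
Log2 ratio of FPKM + 1, Th9+IL-1β over Th9, for the receptor genes at 1 h, day 3 and in vivo; bars span the ratios that the deposited intervals allow, and genes listed at 0 in a library are left out of that panel. In vivo, Pdcd1 (1.57) and Havcr2 (1.76) lie to the right of 1 and Lag3 (-0.75) lies to the left of 0 with its whole bar.

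Ratios of receptors inside a library do not depend on how libraries are scaled against each other. Pdcd1 per Ctla4 and Havcr2 per Lag3 each set a receptor higher with IL-1β in vivo over one with a lower value there. These ratios, and the summed share of Pdcd1 and Havcr2, restate the in vivo values above. They are no further support for a difference. Pdcd1 per Ctla4 was 0.304 in Th9+IL-1β cells in vivo and 0.0597 in Th9 cells in vivo, and 0.121 and 0.102 at day 3 with and without IL-1β. Havcr2 per Lag3 was 0.202 and 0.0234 in vivo, and 0.0529 and 0.0675 at day 3, with and without IL-1β. Pdcd1 and Havcr2 together made up 8.46% of the receptors' summed FPKM in Th9+IL-1β cells in vivo and 2.02% in Th9 cells in vivo. At day 3 the share was 4.0% with IL-1β and 3.64% without. Ctla4 per Icos, a costimulatory neighbour on chromosome 1, was 0.768 and 0.809 in vivo and 0.754 and 0.729 at day 3. This pair kept nearly the same ratio in all 4 poly(A) libraries. Ctla4 per Cd28, the neighbour on its other side, varied more, at 1.38 and 1.81 in vivo and 2.16 and 1.65 at day 3, with and without IL-1β.

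Markers of other cell types differed between the in vivo libraries as well. The 13 markers of epithelium, endothelium and stroma summed to 16774 FPKM in the Th9+IL-1β library in vivo and 6505 FPKM in the Th9 library in vivo, against 26.6 and 29.3 FPKM at day 3. Of these 13 markers, 9 were counted as higher with IL-1β in vivo, led in level by Sftpc, the lung surfactant gene, at 10010 against 3512 FPKM. The share of all genes compared that were counted as higher was 6.23%. The 17 markers of macrophages, neutrophils and dendritic cells summed to 2882 and 1269 FPKM in vivo, and 3 were counted as higher, among them Lyz2 at 1614 against 521 FPKM and Csf1r at 10.3 against 1.91 FPKM. Havcr2 and the ligand gene Cd274 are also known from such cells, and of the 17 markers Marco was listed at 0 in both in vivo libraries and the dendritic cell gene Zbtb46 in the Th9 one.

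For the 12 NK and CD8 markers the in vivo sums were 131 FPKM in Th9+IL-1β cells and 36.5 FPKM in Th9 cells, and 2 were counted as higher. Gzma alone gave 90.5 and 7.54 FPKM of these sums with and without IL-1β. The defining NK gene Ncr1 was at 0.558 FPKM with IL-1β and at 0 without, Klra4 and Klra8 were at 0 in both, Klrc2 was at 0 without IL-1β, and Cd8a was at 1.43 and 0.970 FPKM. The 9 B cell markers had nearly equal in vivo sums, 53.6 FPKM in Th9+IL-1β cells and 53.5 FPKM in Th9 cells. Among them, 1 was counted as higher and 1 as lower. These marker counts stand beside shares of 6.23% higher and 3.48% lower for all genes compared. The part of other cell types in the Pdcd1 and Havcr2 differences was not tested. In such bulk RNA, fewer cells of a type and less RNA per cell cannot be told apart.

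None of the 14 T cell identity genes was counted as different between the in vivo libraries, and their median log2 ratio was -0.16. With the libraries scaled to these genes, the in vivo log2 ratio was 1.72 for Pdcd1, 1.90 for Havcr2 and -0.59 for Lag3. Both Pdcd1 and Havcr2 still met the rule on that scale. The Lag3 intervals, apart as deposited, overlapped on it.

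Between day 3 and the in vivo stage, Pdcd1 and Havcr2 had ratios of opposite sign in the 2 arms. In Th9+IL-1β cells Havcr2 was the only receptor of the 8 at 5 FPKM that was counted as higher, and 0 were counted as lower (5.87% of all genes compared). It stood at 7.11 FPKM in vivo and 2.88 FPKM at day 3, and passed the 5 FPKM floor only through the library where it was higher. Its log2 ratio was 1.06, with 0.07 to 2.19 allowed, and 12.0% of the 8572 genes compared were counted as higher. A pseudocount of 5 gave 0.62 for Havcr2, which was then not counted. Pdcd1 stood at 16.5 FPKM in vivo and 11.2 FPKM at day 3, a log2 ratio of 0.52 with overlapping intervals.

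In Th9 cells without IL-1β, 0 of the 7 receptors at 5 FPKM were counted, against 2.79% of the 8126 genes compared. Havcr2 stood at 1.39 FPKM in vivo and 4.16 FPKM at day 3, with intervals apart, a log2 ratio of -1.11 and both values under the 5 FPKM floor. Pdcd1 stood at 4.91 FPKM in vivo and 7.99 FPKM at day 3, a log2 ratio of -0.60 with overlapping intervals. Each of the 2 genes thus had a ratio above 0 in the Th9+IL-1β arm and below 0 in the Th9 arm. With 1 library per group the difference between the arms has no test.

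Ctla4, Btla and Cd200 were the receptors of Th9+IL-1β cells with lower in vivo values whose intervals lay apart from those of day 3. Ctla4 stood at 54.3 FPKM in vivo and 92.8 FPKM at day 3 (log2 ratio -0.76). Btla stood at 16.1 FPKM in vivo and 25.2 FPKM at day 3 (-0.61), and Cd200 at 24.5 FPKM in vivo and 40.8 FPKM at day 3 (-0.71). All 3 were under 2-fold and were not counted. Lag3 and Tigit of the same arm had log2 ratios of -0.62 and -0.91 with overlapping intervals, and Cd5 had 0.24. In Th9 cells the in vivo and day 3 values of Ctla4, Lag3, Btla and Cd5 were closer, with log2 ratios between -0.08 and 0.08, and Cd200 and Tigit had -0.21 and -0.46 with overlapping intervals. The median over receptors at 5 FPKM was -0.62 in the Th9+IL-1β arm, against 0.04 for all genes compared, and -0.08 in the Th9 arm, against -0.03.

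**Figure D4:**
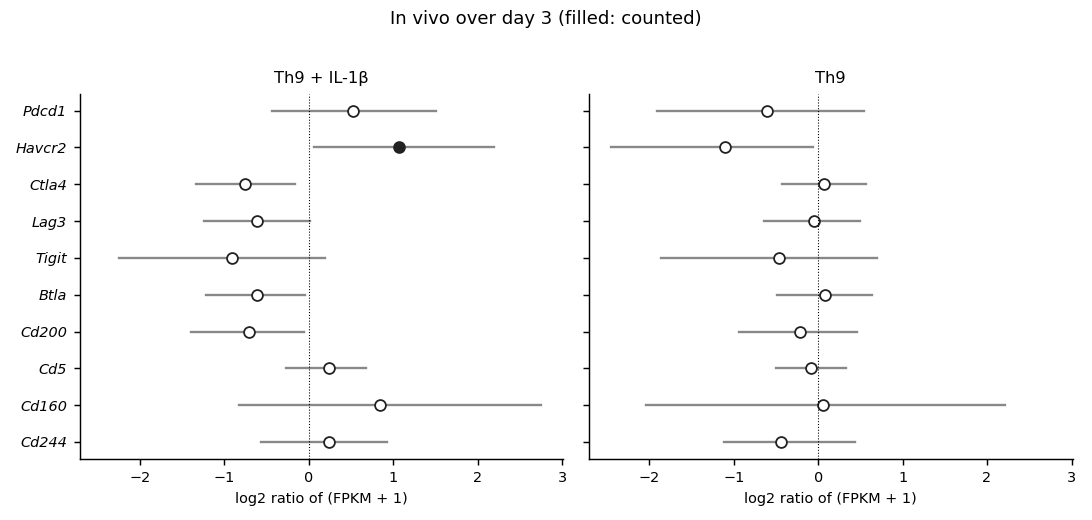
Log2 ratio of FPKM + 1, in vivo over day 3, for the receptor genes in the Th9+IL-1β arm and the Th9 arm; bars span the ratios that the deposited intervals allow. Havcr2 lies at 1.06 in the Th9+IL-1β arm and at -1.11 in the Th9 arm, and Pdcd1 at 0.52 and -0.60.

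All 7 receptors that reached 5 FPKM at day 3 were counted as higher at day 3 than at 1 h, in each arm. So were 95.5% of the 7392 genes compared in the Th9+IL-1β arm and 95.7% of the 7689 in the Th9 arm, and nothing about the receptors can be read from these counts. With the libraries scaled to the T cell identity genes, 0 of the 7 were counted in either arm. The median log2 ratio of the 7 receptors was 4.70 in the Th9+IL-1β arm, against 3.25 for all genes compared, and 3.78 in the Th9 arm, against 3.44.

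Replication exists only across stages, and there limma called no receptor. In a fit of the IL-1β effect common to the 3 stages, limma with Benjamini-Hochberg adjustment called 0 of 8946 genes (0%), while 320 had an unadjusted p under 0.05, and the smallest adjusted p was 0.937. None of the 8 receptors tested had an unadjusted p under 0.05. In that limma fit Pdcd1 had a log2 change of 0.49 ± 0.42 (SE, adjusted p = 0.938) and Havcr2 0.60 ± 0.43 (SE, adjusted p = 0.937). Without the 1 h stage limma called 34 genes and 0 receptors, and Pdcd1 had a log2 change of 1.00 ± 0.39 (SE, unadjusted p = 0.0214, adjusted p = 0.490). The spread in these fits is that between stages, so a change present at 1 stage alone raises it.

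For the in vivo stage against day 3 common to both arms, limma called 408 of 8901 genes (4.58%), 379 higher and 29 lower in vivo. It called 0 of the 8 receptors tested, and none had an unadjusted p under 0.05. Tigit had the smallest receptor p, with a log2 change of -0.69 ± 0.37 (SE, unadjusted p = 0.0810, adjusted p = 0.534 by limma), and was lower in vivo in both arms. For Pdcd1 and Havcr2, with opposite signs in the arms, the common limma changes were -0.04 ± 0.39 and -0.02 ± 0.46 (SE, adjusted p = 0.984 and 0.992).

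Among 16 ligands and binding partners of the receptors, Cd274, which encodes the PD-1 ligand PD-L1, was the only one counted as different between the arms in vivo, and the median log2 ratio of the 14 at 1 FPKM or more was 0.28. It stood at 30.2 FPKM (24.4 to 35.9) in Th9+IL-1β cells and 7.96 FPKM (5.54 to 10.5) in Th9 cells, a log2 ratio of 1.80. Of all genes compared in vivo, 6.23% were counted as higher and 3.48% as lower, so 1 counted ligand is no result about the list. Pdcd1lg2, for the second PD-1 ligand, stood at 5.99 FPKM (3.76 to 8.12) and 2.84 FPKM (1.42 to 4.07) with and without IL-1β, with overlapping intervals. Lgals9, for galectin 9, a TIM-3 partner, stood at 134 and 176 FPKM, and Cd48, for the 2B4 ligand, at 81.9 and 77.2 FPKM, with and without IL-1β. In the Th9+IL-1β arm Cd274 and Tnfrsf14 were counted as higher in vivo than at day 3. Cd274 stood at 30.2 against 13.2 FPKM, and Tnfrsf14 at 8.42 FPKM against a listed 0. Hmgb1 was counted as lower, at 46.6 FPKM in vivo and 120 FPKM at day 3. Of all genes compared in this arm, 12.0% were counted as higher and 5.87% as lower. At day 3 the single ligand gene counted between the arms was Tnfrsf14, for HVEM, the partner of BTLA and CD160, listed at 0 with IL-1β and at 7.20 FPKM without. Both Tnfrsf14 counts rest on this single 0, whose deposited interval is 0 to 0. In Th9 cells in vivo Tnfrsf14 stood at 8.42 FPKM. Of all genes compared between the arms at day 3, 3.44% were counted.

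Of 20 genes for inhibitory signalling mediators, 1 was counted as higher between the in vivo libraries and 0 as lower. Of all genes compared, 6.23% were counted as higher and 3.48% as lower. The median log2 ratio of the mediators was -0.04, against 0.03 for all genes compared. The counted gene was the adaptor gene Sh2d2a, at 105 FPKM in Th9+IL-1β cells and 49.9 FPKM in Th9 cells. The phosphatase genes used by PD-1 and BTLA, Ptpn6 for SHP-1 and Ptpn11 for SHP-2, stood at 75.9 against 101.2 FPKM and 12.5 against 11.5 FPKM with and without IL-1β. At day 3 the ubiquitin ligase gene Cbl was counted as lower, at 2.36 FPKM in Th9+IL-1β cells and 8.93 FPKM in Th9 cells. At that stage 3.44% of all genes compared were counted in either direction. Of 13 costimulatory and related receptors, Cd96, a relative of TIGIT that also binds CD155, was the only one counted in vivo, higher at 35.7 against 17.1 FPKM. The 13 had a median log2 ratio of 0.07. Of 16 other inhibitory receptors and related surface proteins, Nt5e, for the adenosine-making enzyme CD73, was the only one counted, higher at 6.50 against 1.66 FPKM. The 15 of them at 1 FPKM or more had a median log2 ratio of 0.43. Nt5e passed the 5 FPKM floor only through the library where it was higher. In vivo, 19 mediators, 11 costimulatory and 10 other inhibitory genes were at 5 FPKM. A single counted gene is no result about such a list.

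Of 18 transcription factors known for regulating checkpoint receptors, 6 were counted as higher with IL-1β in vivo and 0 as lower. Of all genes compared, 6.23% were counted as higher and 3.48% as lower. The median log2 ratio was 0.81 for the factors at 1 FPKM or more. It was 0.03 for all genes compared, which had reached 5 FPKM. Nr4a1, an orphan nuclear receptor induced by antigen receptor signals, stood at 252 FPKM in Th9+IL-1β cells and 94.5 FPKM in Th9 cells, and Nr4a2 at 8.53 and 1.89 FPKM. Eomes stood at 10.8 and 4.59 FPKM, Maf at 9.77 and 2.85 FPKM, Bcl6 at 8.03 and 2.28 FPKM, and Foxp3 at 13.3 and 4.44 FPKM with and without IL-1β. All of the 6 but Nr4a1 passed the 5 FPKM floor only through the library where they were higher. The count therefore describes these 2 libraries and is no support for a difference. Tox, known from exhausted CD8 T cells, stood at 9.88 and 10.1 FPKM. At day 3 the one counted was Nr4a3, lower at 6.12 FPKM in Th9+IL-1β cells and 19.4 FPKM in Th9 cells. The share of all genes compared that were counted at day 3 was 3.44%. In vivo, Bcl6, Foxp3 and Nrp1 were the 3 counted genes, all higher, of the 8 markers of follicular helper and regulatory T cells. The median log2 ratio of the 8 was -0.24. The in vivo marker sums given above were higher with IL-1β for epithelium and stroma, for macrophages, neutrophils and dendritic cells, and for NK and CD8 cells. For B cells they were nearly equal. The part of other cells in these counts was not tested.

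**Figure D5:**
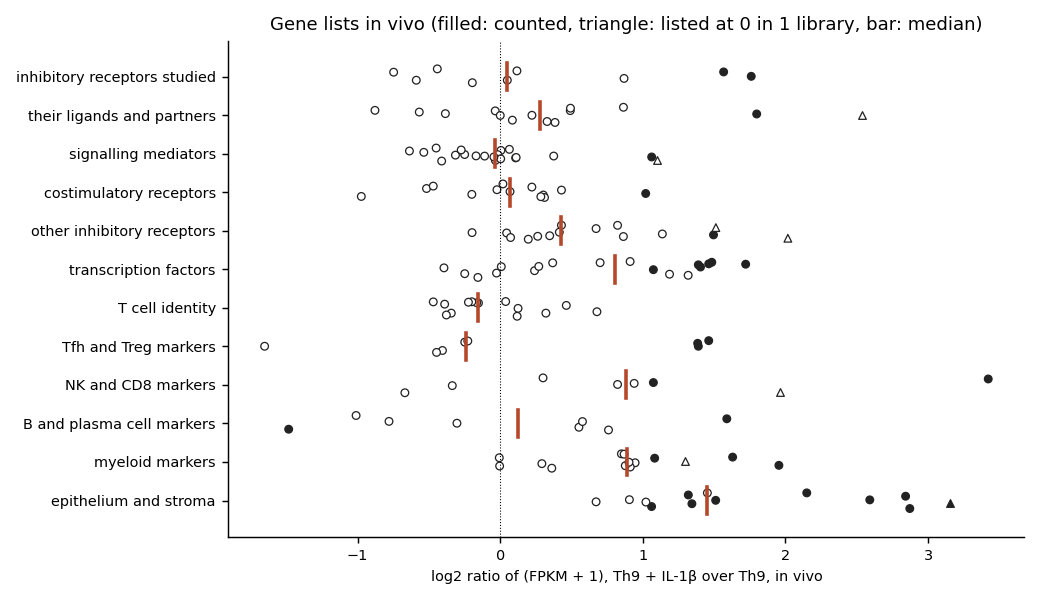
Log2 ratio of FPKM + 1, Th9+IL-1β over Th9 in vivo, for genes at 1 FPKM or more in at least 1 of the 2 libraries, by list; filled symbols are counted genes, triangles are genes listed at 0 in 1 library, for which the position is no fold change, and vertical bars are list medians. The median is 0.05 for the receptors, 0.28 for their ligands, 0.81 for the transcription factors, -0.16 for T cell identity, 0.89 for myeloid markers and 1.45 for epithelium and stroma.

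In the Th9+IL-1β arm, 7 of the 18 transcription factors were counted as higher in vivo than at day 3, with a median log2 ratio of 1.05, and in the Th9 arm 0 were counted. Of all genes compared, 12.0% were counted as higher in the Th9+IL-1β arm, and 2.79% in either direction in the Th9 arm, so the arms differed for genes in general. The 7 were Nr4a1, Nr4a2, Nr4a3, Eomes, Maf, Bcl6 and Tcf7. Nr4a3 stood at 37.3 FPKM in vivo and 6.12 FPKM at day 3, and Tcf7, a factor of naive and memory T cells, at 238 FPKM in vivo and 110.7 FPKM at day 3. Of the other inhibitory receptors, 4 of 16 were counted as higher in vivo than at day 3 in the Th9+IL-1β arm and 0 in the Th9 arm, to be read against the same shares of 12.0% and 2.79%. Among them, the VISTA gene, listed as 4632428N05Rik, stood at 25.2 FPKM in vivo and 12.0 FPKM at day 3. Entpd1, for the enzyme CD39, stood at 6.17 FPKM in vivo and 1.52 FPKM at day 3. It passed the 5 FPKM floor only through the in vivo library. Nt5e and Pecam1 were the others counted, and Pecam1 is also in the list of epithelium, endothelium and stroma markers. The part of other cells in these counts was not tested.

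Several receptor genes lie beside a gene of related function. On mm9, as the files give it, Pdcd1 lies on chromosome 1 from 95934882 to 95949130, Havcr2 on chromosome 11 from 46268433 to 46294756, and Ctla4 on chromosome 1 from 60965869 to 60972674. Ctla4 stands between Cd28, 135.7 kb away, and Icos, 62.1 kb away, with 0 other listed genes between. Lag3 lies 16.1 kb from Cd4, its relative by sequence, on chromosome 6. Lag3 per Cd4 was 0.205 in Th9+IL-1β cells in vivo and 0.267 in Th9 cells in vivo, and 0.288 and 0.267 at day 3 with and without IL-1β. Btla and Cd200 lie 129.2 kb apart on chromosome 16, also with 0 listed genes between.

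For each receptor at 5 FPKM in a poly(A) library, the genes with the most similar pattern over these 4 libraries were found by the Euclidean distance of centred log2 values among 8309 genes. Nearest to Pdcd1 were the histone gene Hist1h3b (0.18), Zkscan14 (0.20) and Vegfa (0.22), which stood at 28.7 and 10.9 FPKM in vivo with and without IL-1β. Nearest to Havcr2 were Mtap6 (0.09), Qprt (0.21) and Ccdc92 (0.28). Ctla4 was nearest to Abhd4 (0.03), Lag3 to Trpv2 (0.03), Tigit to H2-M3 (0.03), Btla to Mrps16 (0.01), Cd200 to Fam192a (0.05) and Cd5 to Usp7 (0.02). With 4 libraries such a likeness is a description of these libraries only.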

How the data were processed

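FPKM per gene, with a lower and an upper bound, were computed by the authors and used as deposited. TopHat and mm9 are named in the submitters' processing notes. The sources used here do not give the tool behind the gene values or the level of the intervals. Some FPKM exceed their own deposited upper bound. Each file had 23700 entries; 285 with a status other than OK were left out, and entries of 1 symbol were summed.

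The pseudocount was 1 and the floor 5 FPKM. List medians are over genes at 1 FPKM or more, and medians of all genes compared are over those at 5 FPKM or more. With 1 library per group, limma 3.58.1 in R 4.3.3 was run on log2 of FPKM + 1 across stages, with stage or arm as covariate and a threshold of 0.05 over all genes tested. Both procedures were run on simulated data. For the size rule these had error within a library only, and for limma a large change present at every stage. The runs give no error rate for the results here. Intervals cover error within a library only.

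Depth was estimated from FPKM times length of single-transcript genes of 3000 to 8000 bases (GENCODE M21). Of values below 4.5 steps, 67.9% to 76.8% lay within 0.1 of a whole step, against 20% for evenly spread values. Receptor lengths were those of the longest transcript. Promoters were the RefSeq windows on GRCm38.p6, matched by symbol for 9 of 10 genes. Other values were computed in Python 3.11.15.

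The 10 genes, the lists and the tests were chosen with earlier results of these data known. Named genes are all 10 receptors in every library, list genes counted by the rule, other list genes and markers given for level, chosen after their values were seen, and the nearest patterns. Alternatives were pseudocounts of 0.1 and 5, no floor, scaling to the median gene or to T cell identity genes, removal of a length trend, and, for limma, other sets of stages.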

Additional observations from a re-analysis of the deposited data

Results flagged for a closer look

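Pdcd1 and Havcr2 each had in vivo against day 3 ratios of opposite sign in the 2 arms, both at least 0.5 in size on the log2 scale, a limit set after seeing the data. For Pdcd1 the log2 ratio was 0.52 in the Th9+IL-1β arm and -0.60 in the Th9 arm. For Havcr2 it was 1.06 in the Th9+IL-1β arm and -1.11 in the Th9 arm. The difference between the arms was not tested, since each group has 1 library.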

How the results depend on the processing

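Of the summary results under an alternative, 43 stayed within 1.5 times their main count and 9 did not. Many of the 43 were a count of 0 that stayed 0. Among these were all limma counts of receptors and all counts at 1 h, where no receptor reached 5 FPKM. In vivo, with against without IL-1β, 1 receptor was counted in place of 2 with a pseudocount of 5 (Havcr2 at 0.92). In vivo against day 3, a pseudocount of 5 gave 0 in place of 1 in the Th9+IL-1β arm, and no floor gave 1 in place of 0 in the Th9 arm (Havcr2, -1.11). Day 3 against 1 h depended on scaling most. In place of 7, it gave 3 in the Th9+IL-1β arm and 2 in the Th9 arm with scaling to the median gene, 0 and 0 with scaling to T cell identity genes, and 2 and 1 with the length trend removed. Signs then reversed for Btla in the Th9+IL-1β arm (-0.63, -1.33 and -0.59 under these 3 alternatives). In the Th9 arm they reversed for Pdcd1 (-0.35, -0.79 and -0.55), Btla (-0.62, -1.37 and -0.64), Tigit (-0.82 and -0.61 under the last 2) and Ctla4 (-0.64, T cell identity genes). The cause was not tested. For in vivo against day 3, limma called 264 and 296 of all genes with pseudocounts of 0.1 and 5, 82 with no floor and 202 with all 6 libraries, in place of 408, and 0 receptors each time. Of the other values of single receptors, 381 kept their call, 24 lost it and 3 gained it. Among the 381, 17 values that were not counted changed sign, 12 of them in day 3 against 1 h (Havcr2, Cd160 and Cd244). The other 5 were Cd5 at 1 h under 3 alternatives and, with the length trend removed, Tigit with against without IL-1β at day 3 (-0.18 in place of 0.25) and Lag3 in vivo against day 3 in the Th9 arm (0.02 in place of -0.05).

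No paired analysis was possible because each group has 1 library, so that no replicate number pairs samples; the limma fits compare the arms within stages, or the stages within arms, through their covariate. Precision is limited by an estimated 449000 to 1705000 fragments per library.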
